A study of Mus musculus with 20 samples.

Results

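Wnt signalling genes were followed in mouse pancreatic ductal adenocarcinomas whose Trp53 gene, Arf gene or both were floxed. The genes were chosen by name: every protein-coding gene of the table with a Wnt, Fzd, Sfrp or Dkk symbol, plus Wif1, Porcn, Lrp5, Lrp6, Rspo1, Rspo3, Rnf43, Znrf3, Axin2, Lef1, Tcf7 and Ctnnb1. This gave 43 genes of 16183 protein-coding genes, and of 20636 genes in all. They comprise 15 Wnt ligands, 10 Frizzled receptors, 2 Lrp co-receptors, 5 Sfrp and Wif antagonists, 2 Dickkopf antagonists, the ligand acyltransferase Porcn, 2 R-spondins, 2 receptor ligases and 4 genes of β-catenin transcription. Of these, 41 passed the minimum level and were tested, and Wnt1 and Wnt9b fell under it. Dkk1, Dkk4, Wnt3, Wnt3a, Wnt8a and Wnt8b are not analysed here.

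The alleles shared by all mice included a pair of Rosa26LSL-tdTomato reporter alleles (T) and Ptf1aCreER, a tamoxifen-activated Cre recombinase made in the acinar cells that secrete digestive enzymes. They were gavaged with 5 mg tamoxifen on each of 3 days at 8 to 10 weeks of age and then aged until morbidity, so the age at collection is not fixed. KPT mice were also Trp53fl/fl, KAT mice Arf-fl/fl, and KPAT mice carried both pairs of floxed alleles. Each group holds 5 tumours, numbered separately in the labels without saying more about how they are related, so p-values measure the spread between these tumours. The library names of the 3 groups run in separate ranges, and any batch that follows them and genotype cannot be told apart. Whole tumours were sequenced, so fewer cells of a type and less RNA per cell cannot be told apart. The KT group is not analysed here.

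Wnts are secreted, lipid-modified proteins that bind Frizzled receptors together with Lrp5 or Lrp6. In the canonical branch this spares β-catenin (Ctnnb1) from destruction, and β-catenin then works with Tcf and Lef factors on target genes such as Axin2, itself a brake on the pathway. Sfrp proteins and Wif1 bind Wnts outside the cell, and Dickkopf proteins such as Dkk2 act on the Lrp co-receptors. Rnf43 and Znrf3 remove Frizzled receptors from the surface unless R-spondins hold them off. In the pancreas the pathway acts during organ growth and exocrine regeneration, and RNF43 is recurrently mutated in mucin-producing human pancreatic tumours.

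Recovered depth was 14696138 to 26248484 reads per library. Pairs of libraries had Spearman correlations of 0.934 to 0.989 inside a group and 0.903 to 0.973 across groups. Levels are in deposited units, which are reads divided by a factor per library, where 1 unit stands for 19.478 reads on geometric average. Trp53 lay at 22.72 to 26.29 (KPT), 98.99 to 148.2 (KAT) and 32.86 to 57.16 (KPAT). Cdkn2a, the gene that holds the Arf and Ink4a exons, lay at 215.7 to 335.4, 150.0 to 689.9 and 268.2 to 907.4, a gene-level value that does not separate Arf from Ink4a and so does not check the Arf allele. All 15 genes of a ductal epithelial list were above 0 in every tumour, with Krt19, a ductal keratin, at 736 or more. The acinar list summed to 1083 in KAT 1 against 84.28 to 174.8 in the other KAT tumours. It summed to 723.8 in KPAT 2 and 489.1 in KPAT 4 against 19.84 to 126.3 in the other KPAT tumours. The intestinal list summed to 5096 in KPT 1 against 1171 to 3681 in the other KPT tumours. It summed to 2910 in KAT 1 against 449.0 to 792.7 in the other KAT tumours. A list of endocrine islet genes summed to 44.15 or less throughout KPT. It reached 266.5 (KAT 3), 748.9 (KAT 4), 723.6 (KAT 5), 341.4 (KPAT 1) and 324.4 (KPAT 2), against 61.66 or less elsewhere. Of a mesothelial list, Upk3b and Lrrn4 were highest in KAT 5 (52.84 and 24.5) and next in KAT 4 (20.24 and 8.966). Msln of that list was lowest in KAT 5 (263.1). How these lists relate to the Wnt values was not tested.

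Transcripts of secreted Wnt antagonists (Sfrp1, Sfrp2 and Dkk2), of the ligands Wnt5a and Wnt9a, of the receptors Fzd3 and Fzd8 and of Ctnnb1 were higher in both KAT and KPAT than in KPT, and Fzd5 was lower in both. Axin2, Wnt2, Wnt2b, Fzd1, Sfrp4, Dkk3, Rspo1 and Znrf3 were higher and Wnt4 and Wnt16 lower in KAT without passing in KPAT, and Rnf43 was lower in KPAT without passing in KAT. Whether a change differs between KAT and KPAT is given by their direct comparison, in which no Wnt gene passed. In KAT against KPT, 19 of 41 tested Wnt genes passed the threshold (46.3%), 16 higher and 3 lower, where 28.9% of all tested genes passed, 15.6% higher and 13.3% lower. In KPAT against KPT, 10 of 41 passed (24.4%), 8 higher and 2 lower, where 16.5% of all tested genes passed, 9.13% higher and 7.4% lower. In KPAT against KAT none passed, where 0.0481% of all tested genes did. Both comparisons with KPT use the same 5 KPT tumours, so they are not independent of each other and their values are given side by side. The threshold throughout is an adjusted p under 0.05 from limma, with p-values adjusted across the 16648 tested genes by the Benjamini-Hochberg method.

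The median log2 fold change over the 41 genes was 0.77 in KAT against KPT and 0.37 in KPAT against KPT, beside 0.03 and 0.02 over all tested genes. Groups did not overlap for 11 of the 41 genes in KAT against KPT (26.8%, against 17.6% of all tested genes) and for 7 in KPAT against KPT (17.1%, against 9.97%). Fold changes are on the scale of log2(normalized count + 1), which understates the change of low genes. Left without KPAT 2, the KPAT against KPT count fell to 6.

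**Figure D1:**
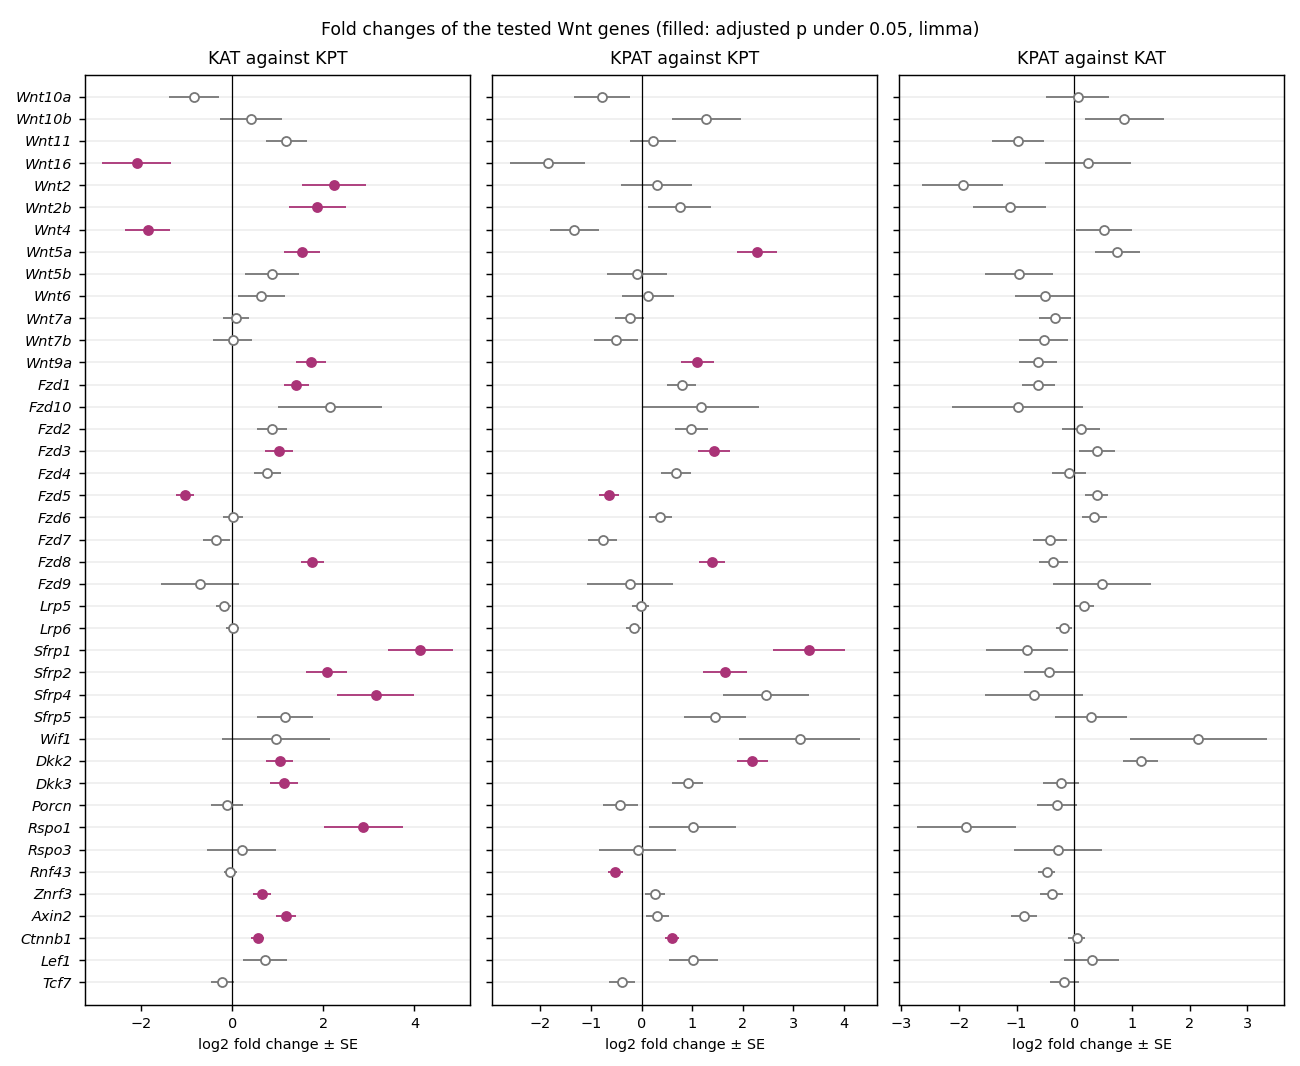
Log2 fold change ± SE of the 41 tested Wnt genes in the 3 comparisons, with filled points for an adjusted p under 0.05 in limma. Sfrp1 lies farthest to the right in both comparisons with KPT (4.13 and 3.30), Lrp5 and Lrp6 lie near 0, and no point is filled in KPAT against KAT.

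Genes of other cell types also passed in the comparisons with KPT. Over all tested genes, 28.9% passed in KAT (15.6% higher) and 16.5% in KPAT (9.13% higher). Of 20 general fibroblast genes, 19 rose in KAT (95.0%) and 15 in KPAT (75.0%) against KPT, with medians of 1.62 and 1.36 on the log2 scale. Their summed level was 5388 to 12230 (KPT), 17920 to 27720 (KAT) and 16440 to 31980 (KPAT), with no overlap between KPT and either other group, and no gene of the list was at 0 in any tumour. Col1a1, the main collagen chain, rose by 1.62 ± 0.38 (SE, adjusted p = 0.00619) in KAT and by 1.82 ± 0.38 (adjusted p = 0.00753) in KPAT. KPT 3 had the lowest fibroblast sum of all 15 tumours. Of 16 myofibroblastic genes, 9 rose in KAT (56.2%) and 7 in KPAT (43.8%). Of 16 inflammatory and adventitial fibroblast genes, 5 rose in KAT (31.2%) and 3 in KPAT (18.8%). Over all tested genes, 15.6% and 9.13% were higher. The medians of this list were 1.42 and 0.85 on the log2 scale.

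Among 14 macrophage and monocyte genes, 10 rose in KAT (71.4%) and 8 in KPAT (57.1%). Their sums were 825.5 to 1468 (KPT), 1942 to 3454 (KAT) and 1100.0 to 2143 (KPAT), KPAT overlapping both other groups. The endothelial list had 6 of 12 genes higher in KAT and 3 in KPAT, and the smooth muscle and pericyte list 5 of 10 and 1. The ductal list had 7 of 15 genes lower in KAT, and 3 lower and 1 higher in KPAT. These were 46.7% and 26.7%, beside 28.9% and 16.5% of all tested genes. The ductal sums were 13570 to 22680 (KPT), 10420 to 13980 (KAT) and 13020 to 16040 (KPAT). The part of cell composition in the Wnt values below was not tested.

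**Figure D2:**
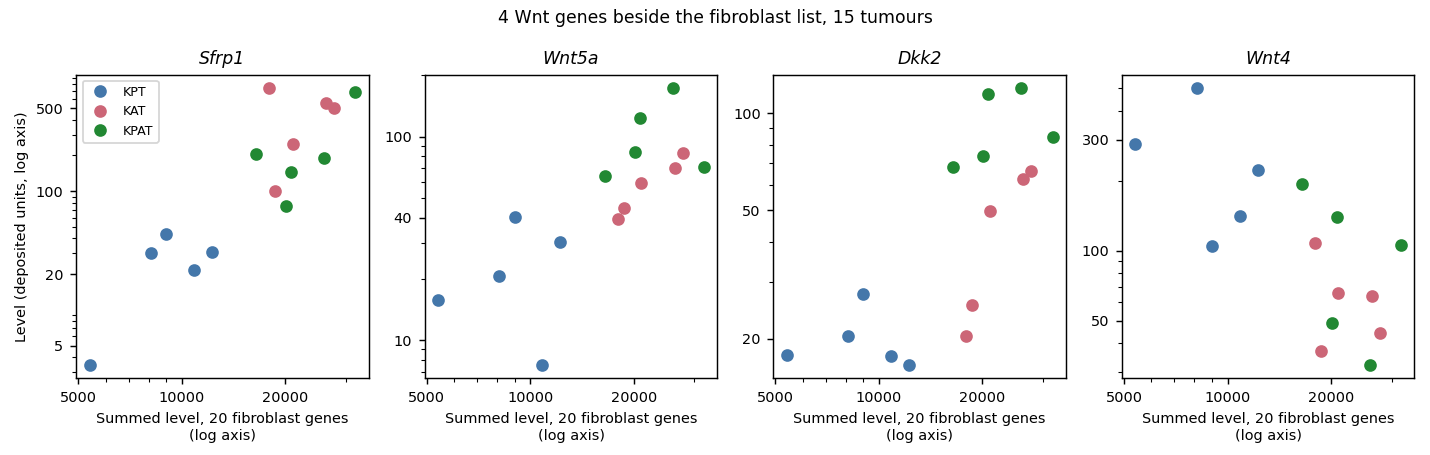
Level of Sfrp1, Wnt5a, Dkk2 and Wnt4 in deposited units (vertical, log axis) against the summed level of 20 fibroblast genes (horizontal, log axis), with 1 point per tumour coloured by group. KPT tumours lie at fibroblast sums of 5388 to 12230 and all KAT and KPAT tumours at 16440 or more, with no overlap along this axis.

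Wnt ligands showed changes in opposite directions. Of the 13 tested, Wnt2, Wnt2b, Wnt5a and Wnt9a rose and Wnt4 and Wnt16 fell in KAT against KPT. Wnt5a and Wnt9a alone passed in KPAT against KPT, both higher. The ligands thus passed at 46.2% and 15.4%, beside 28.9% and 16.5% of all tested genes. Wnt5a, best known for β-catenin-independent signalling (chr14:28504750-28527448 in the GENCODE annotation of GRCm38, as for the positions below), gave 20.6, 30.5, 15.8, 40.5 and 7.57 in KPT, 44.4, 83.5, 39.5, 70.3 and 59.3 in KAT and 64.2, 71, 83.9, 124 and 173 in KPAT, the values standing here and below in the order of tumours 1 to 5. Every KPAT tumour was above every KPT tumour, and the KAT values reached from just under the highest KPT tumour upwards. The difference from KPT was 2.28 ± 0.39 (SE, adjusted p = 0.00344) for KPAT and 1.53 ± 0.39 (SE, adjusted p = 0.0106) for KAT, or 4.84-fold and 2.88-fold. KPAT against KAT gave 0.75 ± 0.39 (SE, adjusted p = 0.508).

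Wnt9a, a ligand with canonical activity in skeletal and blood development, read 6.72, 9.53, 3.35, 7.62 and 7 in KPT, 12.8, 21.6, 22.6, 23.1 and 33 in KAT and 14.1, 20.8, 21, 7.92 and 10.9 in KPAT. All KAT tumours lay above all KPT tumours, while KPAT 4 fell inside the KPT range. The log2 fold change was 1.73 ± 0.33 (SE, adjusted p = 0.0019) in KAT and 1.10 ± 0.33 (SE, adjusted p = 0.0334) in KPAT. The KPAT call was lost without KPT 1, KPT 3, KPAT 1, KPAT 2 or KPAT 3, with an adjusted p of up to 0.0859, and under quantile normalization (0.0646), a fit of the 2 groups (0.0582), array weights (0.0527), the replicate block (0.0569) or without both KPT 1 and KAT 1 (0.0502), whereas the KAT call stayed under the threshold (0.00634 or less) whichever library was left out.

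Wnt2 and Wnt2b, closely related ligands known from lung and foregut development, were highest in KAT. Wnt2 measured 4.01, 7.74, 1.94, 8.37 and 9.27 in KPT, 17.2, 8.29, 38.1, 44.7 and 45.8 in KAT and 10.7, 13.3, 18.1, 4.43 and 1.16 in KPAT. KAT 2 lay within the KPT range and the other KAT tumours above it, and KPAT tumours spread from below to above KPT. The change was 2.23 ± 0.70 (SE, adjusted p = 0.0276) in KAT and 0.30 ± 0.70 (SE, adjusted p = 0.803) in KPAT. Wnt2b measured 1.3, 1.09, 1.4, 1.63 and 4.63 in KPT, 6.33, 5, 2.92, 7.96 and 14.8 in KAT and 5.2, 5.33, 7.68, 0.671 and 1.46 in KPAT. KPT 5 stood apart from the other KPT tumours and overlapped KAT. Its change was 1.87 ± 0.63 (SE, adjusted p = 0.0373) in KAT and 0.75 ± 0.63 (SE, adjusted p = 0.435) in KPAT. Both KAT calls were near the threshold: that of Wnt2 was lost without KPT 1, KPT 3, KAT 3, KAT 4 or KAT 5 (up to 0.068), and that of Wnt2b without KPT 1, KPT 2, KPT 3, KPT 4, KAT 1, KAT 4 or KAT 5 (up to 0.093). With the replicate block their adjusted p was 0.0605 and 0.063 and without both KPT 1 and KAT 1 it was 0.0662 and 0.105, and Wnt2b was also lost under quantile normalization (adjusted p = 0.0803).

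Wnt4, a ligand of kidney, gonad and mammary gland development (chr4:137277489-137299726), went the other way. Its levels were 499, 222, 287, 105 and 142 in KPT, 37.2, 44.4, 108, 63.7 and 66 in KAT and 194, 106, 49, 140.3 and 32.4 in KPAT. KPT 1 was the highest of all tumours, and the lowest KPT tumour, KPT 4, lay just under KAT 3. Wnt4 was 3.62-fold lower in KAT (-1.86 ± 0.49 SE, adjusted p = 0.0126), and its KPAT value of -1.33 ± 0.49 (SE, adjusted p = 0.0767) did not pass. With both KPT 1 and KAT 1 left out, the KAT difference was -1.38 with an adjusted p of 0.0689.

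Wnt16, a ligand known from bone and blood, was low in all tumours and read 1.1, 1.02, 4.48, 1.85 and 4.81 in KPT, 1.22, 0.165, 0.261, 0.348 and 0.989 in KAT and 0.656, 0.519, 2.23, 0.738 and 0.0608 in KPAT. KPT 3 and KPT 5 were highest, and KAT 1 overlapped the lower KPT tumours. The change was -2.10 ± 0.75 (SE, adjusted p = 0.047) in KAT and -1.86 ± 0.75 (SE, adjusted p = 0.101) in KPAT. The KAT call was lost without KPT 3, KPT 4, KPT 5, KAT 2, KAT 3, KAT 4, KPAT 1, KPAT 2 or KPAT 4 (up to 0.104), with a pseudocount of 0.5 (0.0523), with no minimum level (0.0501) and with the replicate block (0.0709).

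The most abundant ligands per kb of exon were Wnt4, Wnt7b and Wnt7a, the Wnt7 proteins being ligands often made by epithelia. Wnt7b held 134, 139, 167, 72.3 and 196 in KPT, 243, 223, 105, 102 and 80.3 in KAT and 74.4, 58.4, 261, 119 and 55 in KPAT, with wide overlap between the groups. Wnt7a ran from 64.7 to 94.9 (KPT), 53.1 to 123 (KAT) and 39.2 to 132 (KPAT). Neither passed in any comparison, with log2 fold changes of 0.01 ± 0.43 (SE, adjusted p = 0.982) and -0.51 ± 0.43 (SE, adjusted p = 0.432) for Wnt7b and of 0.08 ± 0.28 (SE, adjusted p = 0.845) and -0.24 ± 0.28 (SE, adjusted p = 0.586) for Wnt7a. Wnt11, a ligand of cell movement, missed the threshold narrowly in KAT at 1.19 ± 0.45 (SE, adjusted p = 0.0592), with levels of 3.45 to 18.3 (KPT), 17.0 to 36.2 (KAT) and 6.14 to 21.8 (KPAT). Wnt11 passed in DESeq2 (1.05, adjusted p = 0.0445) and with array weights (1.47, adjusted p = 0.0111). The other tested ligands, Wnt5b, Wnt6, Wnt10a and Wnt10b, passed in no comparison. Wnt1 stayed between 0 and 0.522 and Wnt9b between 0 and 2.87 in every tumour.

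The share of Wnt4 in the ligand pool differed between KPT and KAT, while the size of the pool overlapped. Summed per kb of exon, the 15 ligands gave 104 to 187 units per kb in KPT, against 105 to 137 in KAT and 73.6 to 160.0 in KPAT. Wnt4 made up 23.9% to 63.6% of this sum in KPT (median 40.7%), 6.7% to 21.9% in KAT (median 13.3%) and 7.32% to 44.5% in KPAT (median 26.7%). Its share was thus lower in every KAT tumour than in every KPT tumour, while KPAT tumours spanned both. Wnt5a made up 0.726% to 4.96% in KPT, against 4.29% to 7.89% in KAT and 6.71% to 30.0% in KPAT. Wnt2 made up 0.587% to 3.56% in KPT, against 2.68% to 19.3% in KAT and 0.696% to 6.2% in KPAT. These shares are descriptions and were not tested.

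**Figure D3:**
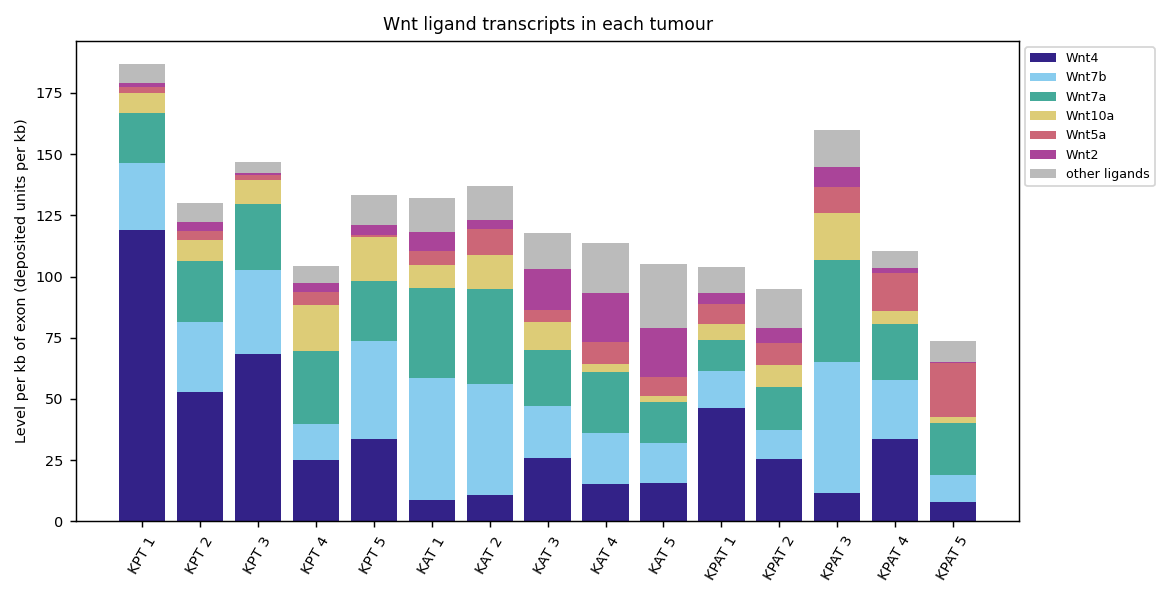
Stacked bars give the level of the Wnt ligands per kb of exon (deposited units per kb) in each of the 15 tumours, with the 6 highest ligands by colour and the rest in grey. Wnt4 takes 23.9% to 63.6% of the KPT bars and 6.7% to 21.9% of the KAT bars, Wnt2 is widest in KAT 3, KAT 4 and KAT 5, and Wnt5a is widest in KPAT 5.

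Frizzled receptors, the membrane proteins that bind Wnts, rose in part. Of 10 tested, Fzd1, Fzd3 and Fzd8 were higher and Fzd5 lower in KAT against KPT, and Fzd3 and Fzd8 higher and Fzd5 lower in KPAT against KPT. Fzd8 levels were 6.37, 9.78, 2.92, 5.77 and 7.26 in KPT, 18.1, 21.1, 23.2, 19.5 and 19.99 in KAT and 12.5, 16.8, 19.2, 18.6 and 13.1 in KPAT. Both other groups lay wholly above KPT. Its change was 1.76 ± 0.25 (SE, adjusted p = 0.0004) in KAT and 1.39 ± 0.25 (SE, adjusted p = 0.00407) in KPAT, 3.38-fold and 2.63-fold.

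Fzd1 was the highest Frizzled per kb and reached 144, 139, 76.1, 108 and 168 in KPT, 186, 331, 448, 329 and 403 in KAT and 269, 360.0, 157, 181 and 153 in KPAT. Each KAT tumour was above each KPT tumour, and 2 KPAT tumours, KPAT 3 and KPAT 5, lay within the KPT range. The change was 1.41 ± 0.28 (SE, adjusted p = 0.00281) in KAT and 0.79 ± 0.28 (SE, adjusted p = 0.0707) in KPAT. Its share of the Frizzled sum per kb was 31.3% to 45.7% in KPT, against 56.1% to 71.1% in KAT and 42.9% to 62.7% in KPAT, and the sum itself was 57.9 to 97.1, 79.1 to 150.0 and 77.0 to 137 units per kb.

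Fzd3, a receptor of neural and planar polarity signalling, was low and gave 3.26, 4.6, 1.19, 3.87 and 3.21 in KPT, 5.06, 4.94, 7.15, 5.7 and 8.29 in KAT and 8.13, 8.34, 10.2, 6.64 and 7.3 in KPAT. No KAT or KPAT tumour was as low as any KPT tumour. It rose by 1.43 ± 0.31 (SE, adjusted p = 0.00847) in KPAT and by 1.03 ± 0.31 (SE, adjusted p = 0.0211) in KAT. The KAT call was lost without KAT 5 (adjusted p = 0.0548), in a fit of the 2 groups (adjusted p = 0.0523) and under quantile normalization, where the difference was 0.63 with an adjusted p of 0.127.

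Fzd5, a canonical receptor of gut epithelium (chr1:64730558-64737751), was the Frizzled that fell. It read 126, 74.7, 98.2, 67.7 and 84 in KPT, 49.4, 34.1, 37.7, 54.1 and 41.3 in KAT and 84.8, 53, 46.9, 56.3 and 46.4 in KPAT. All KAT tumours were below all KPT tumours, while KPAT 1 lay within KPT. Fzd5 was 2.06-fold lower in KAT (-1.04 ± 0.20 SE, adjusted p = 0.00191) and 1.57-fold lower in KPAT (-0.65 ± 0.20 SE, adjusted p = 0.0362). Leaving out KPT 1, KPT 3 or any KPAT tumour except KPAT 1 ended the KPAT call, at adjusted p values of 0.0893 or less, as did quantile normalization (0.0582), a fit of the 2 groups (0.0632), array weights (0.075) and leaving out both KPT 1 and KAT 1 (0.0959). An opposite-strand gene, Gm38058, shares 17.8% of the exon bases of Fzd5, and the strand setting of the counting is not given in the sources used here.

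Fzd2 and Fzd4 missed the threshold in limma and passed in some alternatives. Fzd2 stood at 0.87 ± 0.33 (SE, adjusted p = 0.0581) in KAT and 0.98 ± 0.33 (SE, adjusted p = 0.0529) in KPAT, with levels of 11.4 to 23.1 (KPT), 22.1 to 52.2 (KAT) and 17.8 to 65.2 (KPAT). It passed in both comparisons in edgeR (adjusted p = 0.0433 and 0.0342), in DESeq2 (adjusted p = 0.0233 and 0.00991) and with the replicate block (0.0315 and 0.0322). Fzd4, the receptor of Norrin in blood vessels, stood at 0.77 ± 0.29 (SE, adjusted p = 0.0594) in KAT and 0.68 ± 0.29 (SE, adjusted p = 0.123) in KPAT, and the KAT difference passed in DESeq2 (adjusted p = 0.0386) and with array weights (adjusted p = 0.0124). Fzd6, Fzd7, Fzd9 and Fzd10 passed in no comparison, and Fzd10 in KPT came from a single tumour, KPT 5, at 24.1 against 0.0502 to 0.616 in the others. The co-receptors Lrp5 and Lrp6 passed in no comparison. Lrp5 ran from 243 to 437 (KPT), 242 to 319.9 (KAT) and 238 to 399 (KPAT), with log2 fold changes of -0.19 ± 0.17 (SE, adjusted p = 0.414) and -0.02 ± 0.17 (SE, adjusted p = 0.941). Lrp6 gave 0.01 ± 0.14 (SE, adjusted p = 0.98) and -0.16 ± 0.14 (SE, adjusted p = 0.467), and the signs of the Lrp5 value in KPAT and the Lrp6 value in KAT changed between alternatives.

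The Sfrp and Wif antagonists had the highest median log2 fold change of the role groups in both comparisons with KPT, 2.07 in KAT and 2.46 in KPAT, and the Dickkopf pair had 1.09 and 1.55. Of the 5 Sfrp and Wif genes, Sfrp1, Sfrp2 and Sfrp4 rose in KAT and Sfrp1 and Sfrp2 in KPAT, and of the 2 Dickkopf genes both rose in KAT and Dkk2 in KPAT. No antagonist fell. Summed per kb, the 7 antagonists gave 19.5 to 44.7 units per kb in KPT, against 66.5 to 255 in KAT and 65.1 to 252 in KPAT, with no overlap between KPT and the others, as for the fibroblast sum above.

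Sfrp1, a decoy that binds Wnts through a Frizzled-like domain (chr8:23411502-23449632), changed most of the 41 genes. It measured 30.2, 30.9, 3.45, 43.8 and 21.5 in KPT, 99.6, 498, 735, 549 and 251 in KAT and 204, 688, 74.4, 146 and 191 in KPAT. Every KAT and KPAT tumour exceeded every KPT tumour, and KPT 3 was far below the other KPT tumours. The change was 4.13 ± 0.71 (SE, adjusted p = 0.00112) in KAT and 3.30 ± 0.71 (SE, adjusted p = 0.00863) in KPAT, or 17.5-fold and 9.87-fold. Left without KPT 3, the values were 3.50 (adjusted p = 0.00165) and 2.68 (adjusted p = 0.0136). Sfrp1 made up 4.05% to 22.4% of the antagonist sum per kb in KPT, against 34.3% to 65.9% in KAT and 24.1% to 62.5% in KPAT.

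Sfrp2, a related decoy common in fibroblasts, read 4.82, 8.63, 2.05, 3.3 and 10.1 in KPT, 14.3, 13.7, 23.8, 30.4 and 27.8 in KAT and 17.9, 24.4, 6.54, 18.5 and 16.7 in KPAT. The KAT tumours were all above KPT, and KPAT 3 fell inside the KPT range. It rose by 2.07 ± 0.44 (SE, adjusted p = 0.00348) in KAT and by 1.65 ± 0.44 (SE, adjusted p = 0.0201) in KPAT, the KPAT call being lost without KPAT 2 (adjusted p = 0.0551). Sfrp4, another member of the family, gave 0.903, 1.41, 0.162, 1.28 and 0.668 in KPT, 21.9, 16.8, 1.88, 7.49 and 2.86 in KAT and 2.78, 5.59, 30.1, 1.54 and 1.82 in KPAT. Neither KAT nor KPAT overlapped KPT, but KAT 1, KAT 2 and KPAT 3 held most of the signal. Its change was 3.15 ± 0.85 (SE, adjusted p = 0.0134) in KAT, and 2.46 ± 0.85 (SE, adjusted p = 0.06) in KPAT missed the threshold but passed in edgeR (3.24, adjusted p = 0.0298) and DESeq2 (3.23, adjusted p = 0.00121). With KPT 1 and KAT 1 both left out, the KAT value was 2.81 with an adjusted p of 0.0505.

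Wif1, which binds Wnts through its own domain, varied widely within KPAT. Its levels were 4.21, 1.41, 1.56, 3.21 and 0.535 in KPT, 0.656, 15.3, 2.09, 6.31 and 3.62 in KAT and 19.1, 15.9, 0.436, 58.8 and 107 in KPAT. KPAT 3 was the lowest of all 15 tumours and the other 4 KPAT tumours were above all of KPT and KAT. The values of 3.12 ± 1.19 (SE, adjusted p = 0.0841) for KPAT against KPT and 0.96 ± 1.19 (SE, adjusted p = 0.569) for KAT against KPT did not pass. Sfrp5 reached 0.312 to 1.96 (KPT), 0.604 to 3.29 (KAT) and 1.2 to 7.85 (KPAT) and passed in no comparison.

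Dkk2, a Dickkopf protein that blocks or, in some settings, stimulates Lrp6 (chr3:132085292-132180304), was highest in KPAT. It measured 20.4, 16.6, 17.8, 27.6 and 17.7 in KPT, 25.4, 66.2, 20.4, 62.8 and 49.9 in KAT and 68.2, 84.5, 73.8, 115 and 119.5 in KPAT. KPAT tumours lay above every KAT and every KPT tumour, and KAT 1 and KAT 3 were within KPT. The change was 2.19 ± 0.30 (SE, adjusted p = 0.00173) in KPAT (4.56-fold) and 1.04 ± 0.30 (SE, adjusted p = 0.0201) in KAT (2.05-fold), the KAT call being lost without KAT 4 (adjusted p = 0.0555). KPAT against KAT gave 1.15 ± 0.30 (SE, adjusted p = 0.207). It was the 1 Wnt gene of 41 whose KPAT and KAT tumours did not overlap (2.44%, against 2.72% of all tested genes).

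Dkk3, a divergent Dickkopf, gave 66.4, 79, 40.5, 79.8 and 56.5 in KPT, 81.5, 129, 228, 144 and 146 in KAT and 106, 172, 57.5, 135 and 158 in KPAT. KAT lay above KPT throughout, and KPAT 3 fell inside KPT. It rose by 1.14 ± 0.31 (SE, adjusted p = 0.0129) in KAT, and 0.91 ± 0.31 (SE, adjusted p = 0.0539) in KPAT missed the threshold but passed in edgeR (0.98, adjusted p = 0.0391), in DESeq2 (0.95, adjusted p = 0.0126) and without KPAT 3 (1.17, adjusted p = 0.0152). Dkk3, grouped with the antagonists by its symbol, held the largest share of their sum per kb in KPT, at 52.9% to 61.8%. It took 20.4% to 36.5% in KAT and 20.4% to 29.1% in KPAT. Whether Dkk3 acts as a Wnt antagonist in these tumours was not tested.

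Promoter sequence was read for 28 of the 43 genes that matched the RefSeq table of GRCm38.p6, and its relation to the changes was not tested. Each window of 300 bases ran from 250 before to 50 after an annotated start. Sfrp1 and Wnt5a were among the genes without a window. The Tcf and Lef motif, searched as CTTTGAT or CTTTGAA on both strands, was in 2 of 37 windows, those of Wnt11 and Wnt5b (5.41%, against 8.65% of all 32851 windows). Wnt windows held a median of 26.0 CpG pairs (3 to 58), against 7 over all windows. The promoters of a canonical target that rose in KAT (Axin2), of antagonists that rose in both groups (Sfrp2 and Dkk2) and of the receptor that fell in both (Fzd5) are shown 5′ to 3′ on the strand of the gene, with CpG pairs in capitals. Axin2 lies at chr11:108920099-108920398 on the plus strand, Sfrp2 at chr3:83766071-83766370 (plus), Dkk2 at chr3:132085042-132085341 (plus) and Fzd5 at chr1:64737701-64738000 (minus).
Axin2: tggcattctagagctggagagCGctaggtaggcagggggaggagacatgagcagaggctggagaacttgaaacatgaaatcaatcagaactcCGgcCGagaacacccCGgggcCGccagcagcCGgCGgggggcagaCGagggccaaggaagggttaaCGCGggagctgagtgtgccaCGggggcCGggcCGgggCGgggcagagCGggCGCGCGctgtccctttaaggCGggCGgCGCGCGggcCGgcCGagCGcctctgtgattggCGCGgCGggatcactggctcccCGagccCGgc
Sfrp2: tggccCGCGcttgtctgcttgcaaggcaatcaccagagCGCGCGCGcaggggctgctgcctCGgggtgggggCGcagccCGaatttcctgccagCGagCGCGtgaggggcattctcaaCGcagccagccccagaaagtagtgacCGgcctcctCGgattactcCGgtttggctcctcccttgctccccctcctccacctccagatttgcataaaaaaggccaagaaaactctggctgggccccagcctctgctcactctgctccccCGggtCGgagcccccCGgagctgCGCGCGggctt
Dkk2: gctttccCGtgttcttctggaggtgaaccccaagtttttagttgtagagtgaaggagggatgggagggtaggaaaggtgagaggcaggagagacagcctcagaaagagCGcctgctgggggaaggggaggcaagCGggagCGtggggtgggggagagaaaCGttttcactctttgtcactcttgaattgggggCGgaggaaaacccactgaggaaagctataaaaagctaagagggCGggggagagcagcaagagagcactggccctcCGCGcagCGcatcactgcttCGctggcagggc
Fzd5: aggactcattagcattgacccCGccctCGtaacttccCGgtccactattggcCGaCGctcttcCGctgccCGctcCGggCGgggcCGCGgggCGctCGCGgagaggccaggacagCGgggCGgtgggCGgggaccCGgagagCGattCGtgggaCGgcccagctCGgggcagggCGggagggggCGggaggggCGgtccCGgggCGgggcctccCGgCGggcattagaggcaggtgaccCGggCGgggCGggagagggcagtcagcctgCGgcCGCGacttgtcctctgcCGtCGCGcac
They hold 31, 22, 11 and 38 CpG pairs, so the risen genes shown here lie on both sides of the Wnt median. None of the 4 windows holds the motif, and sequence outside the windows was not searched.

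Genes that act on ligands and receptors changed little or in 1 comparison. Porcn, the acyltransferase that makes Wnts fit for secretion, read 328, 396, 470.5, 279.6 and 131 in KPT, 208, 265, 391, 292 and 233 in KAT and 328, 153, 283, 337 and 110.3 in KPAT, with overlap throughout and log2 fold changes of -0.12 ± 0.35 (SE, adjusted p = 0.821) and -0.42 ± 0.35 (SE, adjusted p = 0.443). Rspo1, an R-spondin that strengthens Wnt signals, was low and gave 1.46, 0.831, 0.162, 0.176 and 5.35 in KPT, 3.19, 1.43, 7.47, 14.9 and 13.9 in KAT and 3.08, 3.22, 1.31, 1.01 and 0.73 in KPAT. KAT 4 and KAT 5 were highest, and KAT 1 and KAT 2 overlapped KPT. It rose by 2.88 ± 0.86 (SE, adjusted p = 0.0225) in KAT, a call lost without KPT 3, KPT 4, KAT 4 or KAT 5 (up to 0.0594) and in edgeR (0.0546), and stood at 1.01 ± 0.86 (SE, adjusted p = 0.447) in KPAT. Rspo3 stayed between 0.162 and 1.98 and passed in no comparison.

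The receptor ligases Rnf43 and Znrf3, both also targets of the pathway, moved in different comparisons. Rnf43 measured 47.3, 34.3, 50.8, 45.2 and 47.9 in KPT, 41.9, 30.2, 50.4, 47.5 and 51.1 in KAT and 31.8, 32.8, 36.5, 27.8 and 27.6 in KPAT. KPAT values were low and tightly grouped, with KPT 2 and KAT 2 among them. It was 1.43-fold lower in KPAT than in KPT (-0.52 ± 0.15 SE, adjusted p = 0.033) and stood at -0.04 ± 0.15 (SE, adjusted p = 0.867) in KAT. Leaving out KPT 1, KPT 3, KPT 5, KPAT 2, KPAT 4 or KPAT 5 ended the KPAT call (up to 0.0701), as did array weights (0.0561) and leaving out both KPT 1 and KAT 1 (0.0805). Znrf3 measured 10.3, 17.5, 13.2, 17.4 and 24.9 in KPT, 23.1, 21.1, 28.5, 25 and 28.3 in KAT and 15, 18.9, 23.8, 19.7 and 19.5 in KPAT. KAT values were high, with KPT 5 among them. It rose by 0.65 ± 0.20 (SE, adjusted p = 0.0275) in KAT, a call lost without KPT 1, KPT 3, KAT 3, KAT 4 or KAT 5 (up to 0.0647), in a fit of the 2 groups (0.0509) and without both KPT 1 and KAT 1 (0.0781), and stood at 0.26 ± 0.20 (SE, adjusted p = 0.394) in KPAT.

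Of the transcription genes, Axin2 and Ctnnb1 moved and Lef1 and Tcf7 did not pass. Axin2, a widely used readout of β-catenin activity (chr11:108920349-108950783), gave 13.2, 14.4, 8.58, 14 and 19.1 in KPT, 29.2, 22.4, 42.8, 27.1 and 35 in KAT and 14.4, 24.7, 15.9, 17 and 13.4 in KPAT. Every KAT tumour was above every KPT tumour, while KPAT overlapped both. The change was 1.18 ± 0.23 (SE, adjusted p = 0.00213) in KAT (2.27-fold) and 0.31 ± 0.23 (SE, adjusted p = 0.367) in KPAT. KPAT against KAT gave -0.87 ± 0.23 (SE, adjusted p = 0.205), the lowest adjusted p of the 41 Wnt genes in that comparison.

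Ctnnb1, β-catenin itself, was expressed at 638, 891, 830.2, 875 and 890.2 in KPT, 941, 1242, 1293, 1272 and 1313 in KAT and 1040.0, 1102, 1373, 1271 and 1454 in KPAT. Both groups lay wholly above KPT, with KPT 1 and KAT 1 the lowest of their groups. It rose by 0.56 ± 0.14 (SE, adjusted p = 0.00959) in KAT and by 0.60 ± 0.14 (SE, adjusted p = 0.0123) in KPAT, 1.47-fold and 1.51-fold. Transcript level does not measure the stabilised protein. The opposite-strand gene Ulk4 shares 14.6% of Ctnnb1 exon bases and had a mean level of 2.44. Lef1 ran from 0.446 to 3.41 (KPT), 2.09 to 3.65 (KAT) and 1.67 to 5.5 (KPAT), at 0.72 ± 0.48 (SE, adjusted p = 0.27) and 1.02 ± 0.48 (SE, adjusted p = 0.155). Tcf7, a factor also abundant in T cells, ran from 27.0 to 57.9, 35.0 to 49.3 and 22.8 to 57.4, at -0.22 ± 0.25 (SE, adjusted p = 0.524) and -0.39 ± 0.25 (SE, adjusted p = 0.29).

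**Figure D4:**
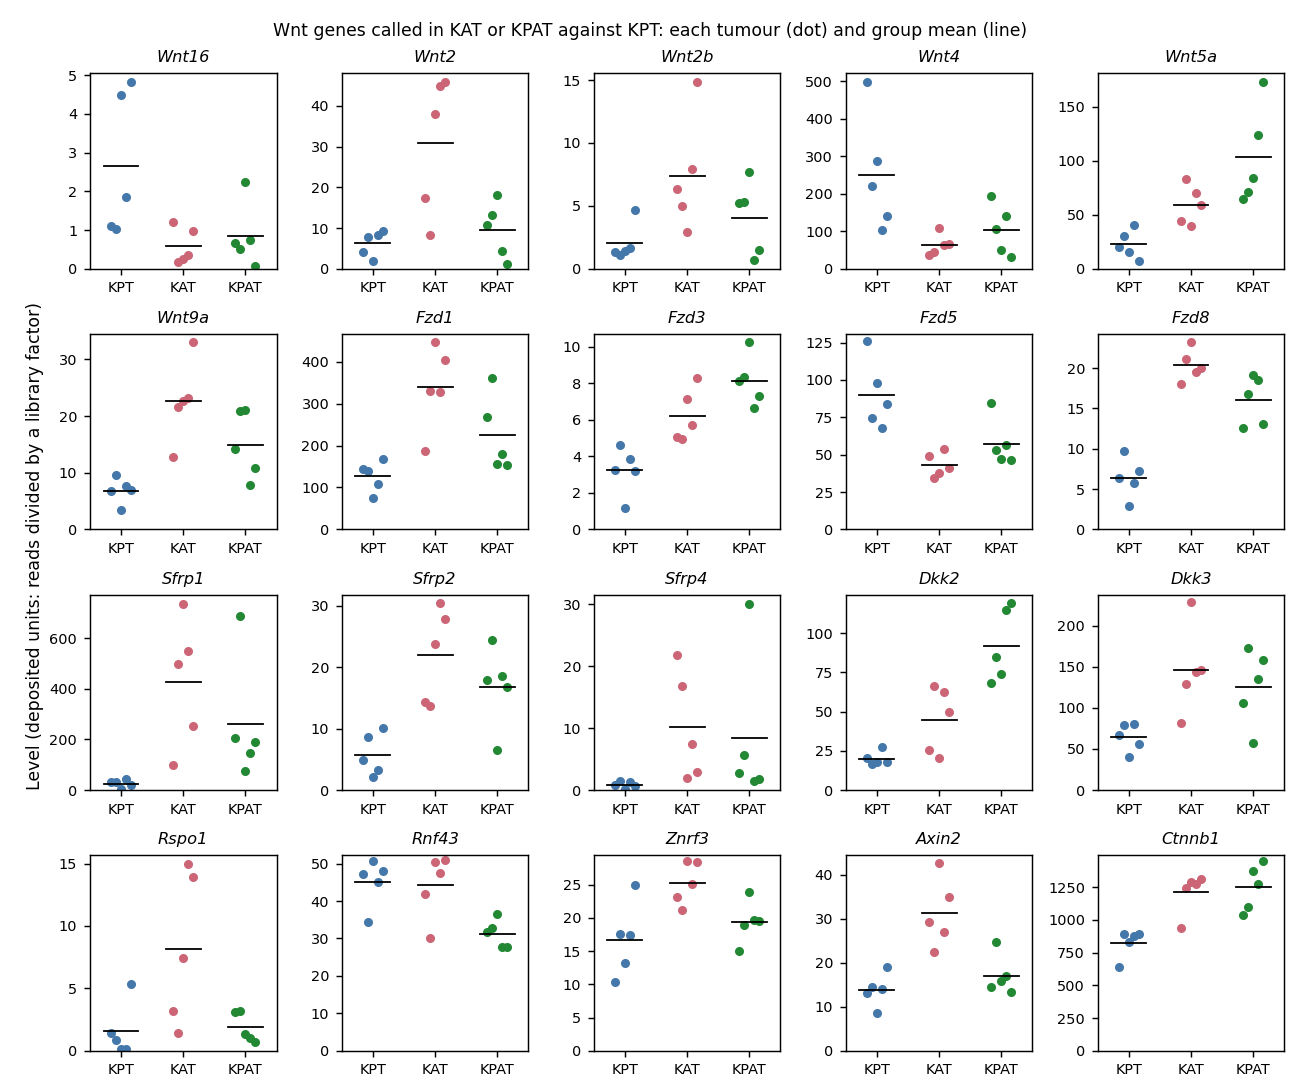
Level in deposited units (vertical axis from 0) of the 20 Wnt genes that passed in KAT or KPAT against KPT, with 1 dot per tumour and a line at the group mean. Fzd8, Sfrp1 and Ctnnb1 have all KAT and KPAT dots above all KPT dots, Fzd5 has KAT wholly below KPT, and Dkk2 has KPAT above both other groups.

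KPAT against KAT gave no call among the 41 Wnt genes in limma, with 7 genes at an unadjusted p under 0.05 (10.8% of all tested genes were) and a median log2 fold change of -0.28. The 3 nearest to the threshold were Axin2, Dkk2 and Rnf43, the last at -0.48 ± 0.15 (SE, adjusted p = 0.3). edgeR called none, and DESeq2 called 2, Axin2 at -0.88 (adjusted p = 0.0234) and Dkk2 at 1.03 (adjusted p = 0.0476). Limma with array weights called 3 lower genes, Axin2 at -0.81 (adjusted p = 0.0381), Wnt2 at -2.26 (adjusted p = 0.0432) and Rnf43 at -0.58 (adjusted p = 0.0316). The missing calls do not show that the groups have equal levels.

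Other genes of the pathway were read from lists taken by role. Of 17 tested target genes, 5 rose in KAT and 4 in KPAT against KPT and none fell (29.4% and 23.5%, beside 28.9% and 16.5% of all tested genes), with medians of 0.73 and 0.61. In the higher direction alone, 15.6% (KAT) and 9.13% (KPAT) of all tested genes passed, and the medians over all tested genes were 0.03 and 0.02. The list as a whole was not tested. Ccn4, a matricellular protein first found as a Wnt1-induced gene, was 5.72 ± 1.71 in KPT, 24.3 ± 8.83 in KAT and 25.6 ± 12 in KPAT (mean ± SD, n = 5), and rose by 2.02 ± 0.34 (SE, adjusted p = 0.00105) and 2.07 ± 0.34 (SE, adjusted p = 0.00298). Prox1, a homeobox factor, rose by 2.17 ± 0.40 (SE, adjusted p = 0.00165) and 1.27 ± 0.40 (SE, adjusted p = 0.0418), and Sox4 by 0.73 ± 0.15 (SE, adjusted p = 0.00266) and 0.64 ± 0.15 (SE, adjusted p = 0.0104). Nkd1, a feedback inhibitor induced by β-catenin, rose in KAT (1.70 ± 0.43 SE, adjusted p = 0.00949) and stood at 0.36 ± 0.43 (SE, adjusted p = 0.603) in KPAT, from 12 ± 6.82 in KPT, 35.6 ± 11.2 in KAT and 15.1 ± 7.99 in KPAT (mean ± SD, n = 5). Apcdd1, a membrane inhibitor and target, rose in KPAT (1.75 ± 0.49 SE, adjusted p = 0.0256) and stood at 0.90 ± 0.49 (SE, adjusted p = 0.176) in KAT. Other familiar targets such as Lgr5, Sp5, Notum, Ascl2, Myc and Ccnd1 did not pass in either comparison.

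Of 7 tested genes of ligand release and other ligands or inhibitors, 2 passed in each comparison with KPT, all higher (28.6% in each). Over all tested genes, 28.9% passed in KAT (15.6% higher) and 16.5% in KPAT (9.13% higher). Frzb, a further Sfrp-type decoy, rose by 1.33 ± 0.33 (SE, adjusted p = 0.00824) in KAT and 1.09 ± 0.33 (SE, adjusted p = 0.0351) in KPAT, Trabd2b, a protease that inactivates Wnts, rose in KAT (1.56 ± 0.46 SE, adjusted p = 0.021) and Apcdd1 in KPAT. Of 14 other receptors and co-receptors, 5 rose in KAT (35.7%) and 2 in KPAT (14.3%), and none fell. Reck and Adgra2 form the Wnt7 receptor complex of brain vessels: Reck rose by 2.07 ± 0.40 (SE, adjusted p = 0.00218) in KAT and 1.57 ± 0.40 (SE, adjusted p = 0.0174) in KPAT, and Adgra2 rose in KAT (1.59 ± 0.25 SE, adjusted p = 0.000702) and stood at 0.65 ± 0.25 (SE, adjusted p = 0.0903) in KPAT. Ryk, a Wnt5a receptor, rose by 0.42 ± 0.10 (SE, adjusted p = 0.00597) and 0.31 ± 0.10 (SE, adjusted p = 0.0376).

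Cytoplasmic, nuclear and planar polarity genes passed at shares of 31.6% to 38.5% per list in KAT and 7.69% to 15.8% in KPAT, beside 28.9% and 16.5% of all tested genes. Of 19 cytoplasmic β-catenin genes, 5 rose and 1 fell in KAT, and 2 rose and 1 fell in KPAT, with medians of 0.09 and 0.06. Nkd2, a Nkd1 paralogue, rose by 1.94 ± 0.35 (SE, adjusted p = 0.00143) and 1.20 ± 0.35 (SE, adjusted p = 0.0309), and Axin1, the scaffold of the destruction complex, fell, with log2 fold changes of -0.42 ± 0.15 (SE, adjusted p = 0.0479) and -0.53 ± 0.15 (SE, adjusted p = 0.0279). Of 13 nuclear cofactors, 3 rose and 2 fell in KAT and 2 rose in KPAT, led by Pygo1 at 2.01 ± 0.34 (SE, adjusted p = 0.000964) and 1.55 ± 0.34 (SE, adjusted p = 0.00878). Of 13 planar polarity genes, 5 rose in KAT and 1 in KPAT, Prickle2 in both at 1.59 ± 0.29 (SE, adjusted p = 0.00171) and 1.09 ± 0.29 (SE, adjusted p = 0.0221). None of these 6 lists had a call in KPAT against KAT.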

How the data were processed

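RNA came from RNeasy columns, libraries from the TruSeq kit and reads from a HiSeq4000, per the labels' protocols. HISAT2 2.0.4 aligned them to mm10, which is GRCm38, per the submitters' processing notes. The counter, its annotation, its strand setting and the normalization were not given in the sources used here. Signal values deposited by the authors cover 20636 genes in 15 libraries and are whole reads over 1 factor for each library: scaled back, 100% lie within 0.01 of a whole number. Depth ran from 14696138 to 26248484 reads, and low genes carry the most counting error.

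The design assumed the scale of reads, so all values were multiplied by 19.478, the reads per deposited unit averaged geometrically over libraries. The 16648 genes with a mean of at least 10 such normalized counts were fitted on log2(normalized count + 1) in limma 3.58.1 (R 4.3.3), with group means over 15 libraries and a trended eBayes step. Tests were two-sided, with Benjamini-Hochberg adjusted p-values called at 0.05. The script was tested on simulated data. Alternatives were pseudocounts of 0.5 and 8, no minimum or a minimum of 50, median-of-ratios and quantile scaling, the deposited scale, 2-group fits, array weights, robust eBayes, a replicate block, each library left out, and edgeR 4.0.16 and DESeq2 1.42.0 on the recovered reads. Leaving out KPT 1 and KAT 1 was chosen after seeing the data. Tables and plots were made with Python 3.11.15.

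The Wnt genes and all lists were chosen with earlier results of these data known. Named were all called Wnt genes, the highest per kb of each role, 9 fixed genes, the 3 nearest misses per comparison, and up to 4 called genes per pathway list. Ligand targets that did not pass are named as examples chosen after their values were seen. Symbols, exon lengths and positions came from the GENCODE annotation of GRCm38, and promoters from RefSeq. A further allele that all groups share is not reported here.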

Additional observations from a re-analysis of the deposited data

Results flagged for a closer look

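Within a group of 5 tumours, a tumour was picked out when its gap to the nearest of the others exceeded Dixon's 95% critical value on the log2 scale. Of 84 groups examined (28 named Wnt genes in 3 genotypes), 8 were picked out, and chance picks out about 1 in 20 groups. KPT 3 was low for Fzd2 (11.4, against 20.6 to 23.1 in the other KPT tumours), Fzd3 (1.19, against 3.21 to 4.6) and Sfrp1 (3.45, against 21.5 to 43.8), and it had the lowest fibroblast sum. Ctnnb1 was low in KPT 1 (638, against 830.2 to 891) and in KAT 1 (941, against 1242 to 1313). Each of these tumours had the highest intestinal sum of its group. KAT 1 also had the highest acinar sum of its group, and KPT 1 did not. Tcf7 was low in KPT 4 (27.0, against 49.1 to 57.9). Sfrp2 was low in KPAT 3 (6.54, against 16.7 to 24.4). Wnt2b was high in KPT 5 (4.63, against 1.09 to 1.63). What sets these tumours apart was not tested.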

How the results depend on the processing

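The count of Wnt genes past the threshold was 19 for KAT against KPT, with 13 to 21 when 1 library was left out. For KPAT against KPT it was 10, with 6 to 13 when 1 library was left out (6 without KPAT 2) and 16 in DESeq2. For KPAT against KAT it was 0 whichever library was left out, 3 with array weights and 2 in DESeq2. Counts over all tested genes moved with these: KPAT against KPT gave 1811 in a fit of the 2 groups and 1686 without KPAT 2 (2752 as reported), and KPAT against KAT gave 17 after quantile normalization, 15 in a fit of the 2 groups, 515 with array weights, 36 without KAT 2 and 284 in DESeq2 (8 as reported). With KPT 1 and KAT 1 both left out, the Wnt counts were 16, 7 and 0 in the order above. Of the 19 calls in KAT, 12 held in all 15 fits that left out 1 library, and of the 10 in KPAT 6 did. The cause of the other moves was not tested.

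The labels do not say whether the replicate numbers pair the tumours. Same-numbered tumours of different groups correlated at -0.209 to 0.246 in their deviations (median 0.0483, 15 pairs, 5 over 0.1). Differently numbered tumours correlated at -0.512 to 0.418 (median 0.0146, 60 pairs, 17 over 0.1), and 3 libraries correlated best with their own number. These correlations cannot decide whether the tumours are paired, since a pairing can leave little trace in them. With the replicate number as a block, 17, 10 and 0 Wnt genes passed, and 4313, 2248 and 7 of all tested genes.

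Signs changed only for values near 0, none of them called. Lrp5 in KPAT against KPT became 0.06 after quantile normalization, 0.09 without KPT 1 (with or without KAT 1), 0.03 without KPT 2 or KPAT 3 and 0.07 without KPAT 4. Lrp6 in KAT against KPT became -0.00 with median-of-ratios scaling, -0.12 with array weights, between -0.07 and -0.00 without KPT 1, KPT 2, KPT 4, KAT 1, KAT 2 or KAT 3, and -0.07 without KPT 1 and KAT 1. Porcn in the same comparison became 0.03 after quantile normalization and 0.01 without KPT 1 and KAT 1, and ran from -0.41 to 0.05 (without KPT 3) when 1 library was left out. Rnf43 there became 0.12 with array weights and ran from -0.14 to 0.09 (without KAT 2) when 1 library was left out.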
